A study of Mus musculus with 12 samples.

Results

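The comparison concerned whether the RNA change of CD8+ T cells given anti-CD3 and IFN-4a together was the sum of the changes given by each agent alone. The quantity was computed for each gene as the change with IFN-4a in cells given anti-CD3 minus the change with IFN-4a in cells given PBS, on the deposited log2 scale. It is called the interaction here. It equals the combined change from PBS minus the sum of both single changes (the additive sum), so 0 is additive on the log2 scale, which means that the single fold changes multiply. All 22180 genes with a probe set annotated to 1 gene symbol were members, from 33793 probe sets in all.

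The arrays held RNA of CD8+ T cells from the spleens of C57BL/6 mice, enriched by removing other cells with a CD8a+ isolation kit. After 6 h in culture there were 4 groups with 3 arrays each: cells mock treated with PBS, cells given IFN-4a in PBS, cells given anti-CD3 and cells given both agents. Anti-CD3 is an antibody that engages the T cell receptor complex, and IFN-4a is the type I interferon used in the study. No genotype other than the strain and no age is given in the labels, and nothing says that the replicates came from separate mice, so the p-values rest on a spread between samples that may be technical. Each probe set was centred on its median over the 12 arrays, so a value of 0 is that median, and levels cannot be compared between genes. The medians of the arrays were -0.0157 to 0.0165, and the lowest correlation within a group, 0.608, lay above the highest between groups, 0.527. All 8 measured markers of CD8 T cells stood at 8 or above before centring, a coarse mark of brightness left in the decimal steps of the values, against 26.8% of all genes. The mark could be read only from small positive centred values. Genes with several arrays far above their median therefore lacked it, whatever their brightness. In bulk RNA fewer cells of a type and less RNA per cell cannot be told apart.

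Type I interferon binds its receptor on T cells, activates JAK kinases and leads to the binding of interferon-stimulated response elements (ISRE). T cell receptor engagement activates NFAT, AP-1 and NF-kappaB factors and starts the production of cytokines, among them interferon gamma, whose signal acts through gamma-activated sites (GAS). Many genes of antigen presentation and cell-autonomous defence carry elements of both kinds and are known targets of both interferon types.

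The promoters of 8 genes that the results below turn on are shown, with 5 examples from the less-than-additive side (Cxcl10, Gbp5, Igtp, Ifit1, Oasl2) and 3 from the more-than-additive side (Ifitm3, Ifng, Lif). They are RefSeq sequences of GRCm38.p6, 250 bases before to 50 after the transcript start, written 5′ to 3′ along the gene. Capitals mark every match, on either strand, to an ISRE core (GAAANNGAA), a GAS (TTCNNNGAA), a kappaB motif (GGANTTNCC) or an AP-1 motif (TGANTCA). Matches may overlap, and a match is a description of the letters, not a binding site.
Cxcl10, chr5:92348840-92349139, minus strand: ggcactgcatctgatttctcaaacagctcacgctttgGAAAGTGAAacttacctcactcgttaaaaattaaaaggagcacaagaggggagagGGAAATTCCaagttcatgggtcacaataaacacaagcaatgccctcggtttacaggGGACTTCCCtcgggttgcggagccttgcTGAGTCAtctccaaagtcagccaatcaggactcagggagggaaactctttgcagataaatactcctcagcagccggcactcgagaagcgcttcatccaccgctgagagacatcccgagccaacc
Gbp5, chr3:142496684-142496983, plus strand: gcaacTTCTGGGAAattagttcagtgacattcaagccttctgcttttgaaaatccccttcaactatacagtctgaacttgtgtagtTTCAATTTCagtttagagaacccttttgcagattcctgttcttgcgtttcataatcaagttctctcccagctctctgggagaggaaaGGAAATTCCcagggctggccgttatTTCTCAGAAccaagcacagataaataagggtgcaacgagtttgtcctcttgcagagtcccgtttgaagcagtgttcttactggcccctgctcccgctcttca
Igtp, chr11:58199306-58199605, plus strand: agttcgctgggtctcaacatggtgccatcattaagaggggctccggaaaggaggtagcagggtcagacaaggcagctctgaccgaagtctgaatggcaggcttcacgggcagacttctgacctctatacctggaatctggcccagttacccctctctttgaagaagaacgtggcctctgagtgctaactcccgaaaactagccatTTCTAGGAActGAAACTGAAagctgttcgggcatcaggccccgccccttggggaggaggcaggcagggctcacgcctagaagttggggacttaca
Ifit1, chr19:34640639-34640938, plus strand: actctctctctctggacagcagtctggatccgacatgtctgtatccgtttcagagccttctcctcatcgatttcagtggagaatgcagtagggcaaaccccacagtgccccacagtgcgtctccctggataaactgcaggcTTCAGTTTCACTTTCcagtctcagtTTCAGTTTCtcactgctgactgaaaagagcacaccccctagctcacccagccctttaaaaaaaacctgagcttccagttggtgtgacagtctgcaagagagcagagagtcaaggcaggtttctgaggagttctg
Oasl2, chr5:114896684-114896983, plus strand: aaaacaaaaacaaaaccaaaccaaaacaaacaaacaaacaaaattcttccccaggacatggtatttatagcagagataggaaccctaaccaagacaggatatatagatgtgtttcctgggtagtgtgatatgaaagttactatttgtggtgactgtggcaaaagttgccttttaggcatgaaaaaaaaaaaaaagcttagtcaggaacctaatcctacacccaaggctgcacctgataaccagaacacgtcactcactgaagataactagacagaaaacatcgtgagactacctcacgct
Ifitm3, chr7:141010695-141010994, minus strand: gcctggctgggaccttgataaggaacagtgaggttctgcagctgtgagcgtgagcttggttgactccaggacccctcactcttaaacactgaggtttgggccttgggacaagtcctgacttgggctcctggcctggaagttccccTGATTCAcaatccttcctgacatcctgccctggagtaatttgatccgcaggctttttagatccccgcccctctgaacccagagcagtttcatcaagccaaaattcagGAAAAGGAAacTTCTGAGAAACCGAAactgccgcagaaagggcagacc
Ifng, chr10:118440796-118441095, plus strand: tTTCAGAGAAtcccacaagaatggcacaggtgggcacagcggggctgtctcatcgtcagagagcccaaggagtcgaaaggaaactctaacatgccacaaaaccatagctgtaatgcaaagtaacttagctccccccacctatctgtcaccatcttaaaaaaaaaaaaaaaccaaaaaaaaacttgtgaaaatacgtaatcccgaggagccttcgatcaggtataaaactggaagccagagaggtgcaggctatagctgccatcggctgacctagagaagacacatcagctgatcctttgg
Lif, chr11:4257318-4257617, plus strand: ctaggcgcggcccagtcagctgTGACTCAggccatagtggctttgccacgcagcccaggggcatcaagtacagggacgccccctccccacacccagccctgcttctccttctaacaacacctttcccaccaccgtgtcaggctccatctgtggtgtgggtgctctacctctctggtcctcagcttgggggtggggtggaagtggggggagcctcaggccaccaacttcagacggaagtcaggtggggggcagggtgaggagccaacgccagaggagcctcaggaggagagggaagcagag
The Cxcl10 window held 1 ISRE core, 2 kappaB and 1 AP-1 match, and that of Gbp5 1 ISRE core, 2 GAS and 1 kappaB match. The Igtp window held 1 ISRE core and 1 GAS match, which begin 34 and 45 bases before the start, and the Ifit1 window 3 ISRE cores with no match to the other motifs. Ifitm3 had 2 ISRE cores, 1 GAS and 1 AP-1 match, Ifng 1 GAS match at the far end of the window, and Lif 1 AP-1 match. The Oasl2 window held no match to any of the 4 motifs, and neither did those of Il3 (above additive) and Atp10a (near additive), which are not printed.

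The largest class of genes with a called departure from additivity, 123 of 202, was raised by each agent alone and stood below the sum with both, and it held many interferon-stimulated genes. By limma's moderated test with Benjamini-Hochberg adjustment over all 22180 genes (called at an adjusted p under 0.05), the interaction was called in 202 genes (0.911% of those tested). It was below additive in 140 genes (0.631%) and above additive in 62 (0.28%). A further 19217 genes, 86.6%, were near additive, meaning not called and with a 95% interval of the interaction within 0.5 of 0. The remaining 2761 were undetermined, since their interval reached past that bound. Over all genes the median interaction was 0.01. With the centred values quantile normalized, 70 genes were below additive and 47 above, of which 69 and 27 were among the genes called without it. That setting gives every array the same distribution of centred values. It therefore cannot tell a treatment difference in that distribution from a difference between arrays. Leaving out 1 array at a time gave 107 to 140 genes below and 30 to 58 above, with the lowest count above additive without PBS with IFN-4a replicate 2. Array weights gave 172 below and 117 above. The order of the counts turned in a fit of only the 5941 genes with the mark of 8 or above before centring, with 149 below and 170 above. Genes with several arrays far above their median lack that mark, so the subset depends on effect size as well as brightness. The order also turned at an unadjusted p under 0.05 (limma), with 972 below and 1461 above over all genes.

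Single effects set the background for the split by sign. Anti-CD3 alone raised 3018 genes (13.6% of those tested) and lowered 3974 (17.9%), while IFN-4a alone raised 930 (4.19%) and lowered 1823 (8.22%). In cells given anti-CD3, IFN-4a raised 442 genes (1.99%) and lowered 318 (1.43%). In cells given IFN-4a, anti-CD3 raised 2774 genes (12.5%) and lowered 3243 (14.6%). Both single effects and the interaction share the PBS arrays. A PBS mean that lies low by chance raises both single effects and lowers the interaction. Each single change is also subtracted in the interaction. Where the combined change equals the larger single change, the interaction is minus the smaller one. The split is therefore a description with no test of its own.

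Among the 346 genes raised by each agent alone, 123 (35.5%) were below additive, 1 (0.289%) was above, 125 (36.1%) were near additive and 97 were undetermined. Those 125 had median changes of 0.36 with anti-CD3, 0.32 with IFN-4a and 0.59 with both, against a median sum of 0.76. Their median interaction was -0.19. In 111 of the 125 the 95% interval of the combined change also lay within the near-additive bound of the larger single change. For those 111 the near-additive class cannot tell a sum from the larger single change alone. Where anti-CD3 raised and IFN-4a lowered a gene, 18 of 510 (3.53%) were above additive, none was below and 373 (73.1%) were near. The opposite combination, lowered by anti-CD3 and raised by IFN-4a, held 148 genes, of which 135 (91.2%) were near additive, 1 was below and 1 above. Of the 952 genes lowered by both, 22 (2.31%) were above additive, which for a fall means less than the sum, none was below and 639 (67.1%) were near. Genes with 1 called single effect gave few calls. Raised by IFN-4a and not called with anti-CD3 were 436 genes, with 12 below and 4 above. Raised by anti-CD3 and not called with IFN-4a were 2162 genes, with 4 below and 4 above. With neither single effect called, 3 of 14391 genes were above additive and none was below. Lowered by IFN-4a alone were 361 genes with 6 above, and lowered by anti-CD3 alone 2874 genes with 3 above, none below in either. At an unadjusted p under 0.05 in limma, 3 genes were below and 249 above among those raised by anti-CD3 and lowered by IFN-4a, and 1 below and 452 above among those lowered by both. There were 293 below and 234 above among those with neither effect called, 0 and 153 among those lowered by IFN-4a alone, and 32 and 295 among those lowered by anti-CD3 alone.

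**Figure D1:**
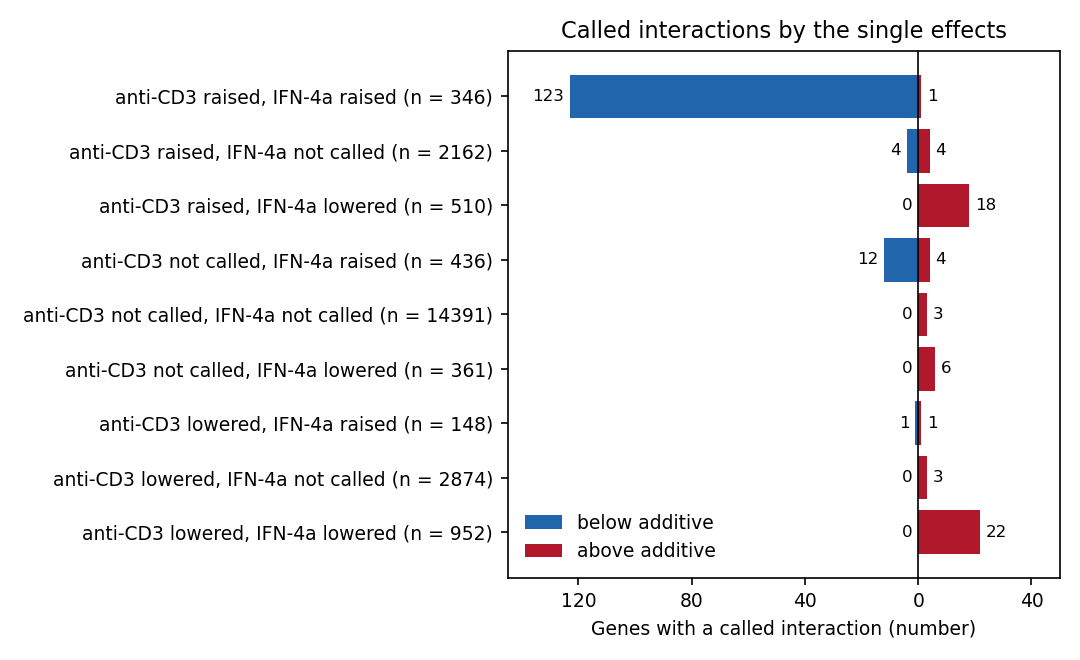
Number of genes with a called interaction (horizontal axis) for each combination of called single effects, with genes below additive drawn to the left of 0, genes above additive to the right, and the size of each combination (n) beside its name. The longest bar is the 123 genes below additive among the 346 raised by both agents, and the 3 combinations with the most above-additive genes involve a fall with IFN-4a (22, 18 and 6).

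The 123 genes raised by both and below additive had a median change of 0.96 with anti-CD3 and 1.52 with IFN-4a. Their additive sum had a median of 2.71, while the combined change had a median of 1.89. The interaction ran from -3.96 to -0.36 with a median of -0.83, and in 41 genes the combined level was at least 2-fold under the additive sum. In 96 of the 123 the 95% interval of the combined change lay within 0.5 of the larger single change. IFN-4a gave the larger single change in 81 of the 123 genes. The combined level was called higher than each agent alone in 16 genes, higher than anti-CD3 alone only in 38, higher than IFN-4a alone only in 28, and neither in 11. It was called lower than IFN-4a alone in 30 genes, 21 of which were still higher than with anti-CD3 alone. Of the 123 genes, 89 carried the mark of 8 or above before centring, which genes with several arrays far above their median lacked. How near bright probes lay to the upper limit of the signal cannot be read from centred values and was not tested.

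**Figure D2:**
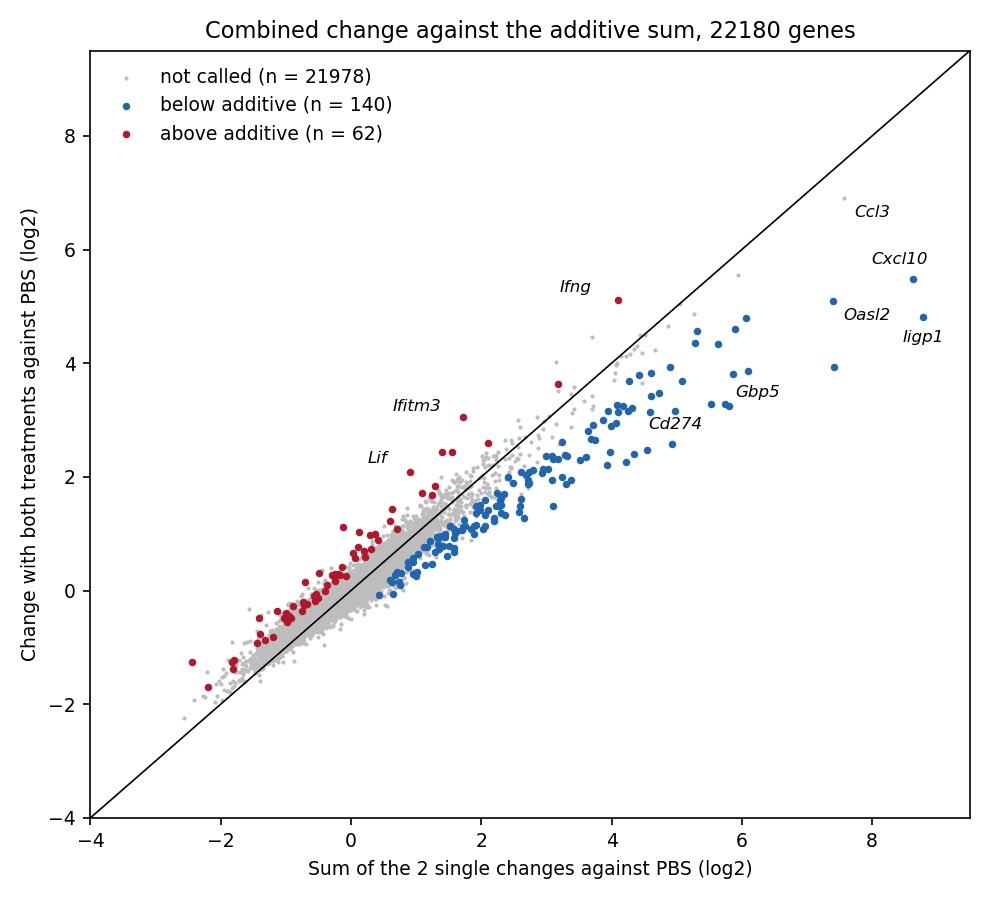
Each point is 1 gene, with the additive sum of both single changes on the horizontal axis and the measured combined change on the vertical axis, both in log2 units against PBS. On the diagonal the combined change equals the sum. Genes raised by both with a large sum lie under the diagonal, as Iigp1 with a sum of 8.78 and a combined change of 4.82, while Ifng, Lif and Ifitm3 lie above it.

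Of all gene groups examined, the interferon-induced GTPases, which attack the membranes around intracellular pathogens, had the lowest median interaction, -1.94 against 0.01 over all genes. All 13 measured members were raised by each agent alone, and 12 of 13 were below additive, with Gbp6 undetermined at an interaction of -0.35. Iigp1 (Entrez 60440), an immunity-related GTPase, read -4.35, -4.55 and -4.36 with PBS and -0.15, 0.03 and -0.19 with IFN-4a. With anti-CD3 it read 0.02, -0.02 and 0.12, and with both agents 0.33, 0.34 and 0.52. All 9 treated arrays thus lay within 1 log2 unit of each other and far above PBS, with the 3 arrays of both agents on top. The single changes of Iigp1 were 4.46 and 4.32, the combined change was 4.82, and the interaction was -3.96 ± 0.11 (SE, limma, adjusted p = 2.94e-10).

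Igtp (Entrez 16145), of the same family, read -2.61, -2.56 and -2.30 with PBS, and -0.03, -0.01 and -0.26 with IFN-4a. It read 0.06, 0.08 and 0.01 with anti-CD3 and 0.14, 0.04 and 0.11 with both. The combined change of Igtp, 2.58, was called higher than neither single change (2.54 with anti-CD3 and 2.39 with IFN-4a), and the interaction was -2.34 ± 0.12 (SE, limma, adjusted p = 1.04e-07). Gbp5 (Entrez 229898), a guanylate-binding protein, read -3.06, -2.93 and -2.78 with PBS and -0.11, -0.07 and -0.47 with IFN-4a. It read 0.13, 0.15 and 0.07 with anti-CD3, and 0.34, 0.35 and 0.40 with both. Gbp5 was called higher with both than with IFN-4a alone but not than with anti-CD3 alone, and its interaction was -2.45 ± 0.14 (SE, limma, adjusted p = 2.34e-07). Gbp10, Irgm1, Irgm2 and Gbp7 had interactions of -2.56, -2.07, -1.95 and -1.94. These families hold near-identical copies, so probes may read more than 1 member. Under quantile normalization the 12 genes with the lowest interaction, among them these GTPases, were all still called, but with values of -2.56 (Iigp1) to -0.96 (Rtp4).

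Cxcl10 (Entrez 15945), a chemokine that draws CXCR3-bearing T cells, had the lowest interaction outside the GTPases. It read -4.36, -4.23 and -4.26 with PBS, -0.86, -0.77 and -1.06 with anti-CD3, 1.04, 1.05 and 0.77 with IFN-4a, and 1.08, 1.31 and 1.20 with both. The arrays with IFN-4a lay above those with anti-CD3 alone without overlap, and the arrays with both agents lay just above those with IFN-4a alone, a difference of 0.25 that was not called (adjusted p = 0.0683, limma). Its changes were 3.39 with anti-CD3, 5.24 with IFN-4a and 5.49 combined, and the interaction was -3.14 ± 0.13 (SE, limma, adjusted p = 1.97e-08). Among the 13 measured chemokines it was the 1 called, and the list's median interaction was -0.20. Ccl3, Ccl4 and Xcl1, chemokines of activated CD8 T cells, rose with anti-CD3 by 6.91, 4.76 and 5.59. With both agents their changes were 6.91, 4.87 and 5.55, and their interactions (-0.66, -0.40 and -0.39) were not called. Xcl1 is named here after its values were seen. Ccl3 was called below additive in the fit without PBS with IFN-4a replicate 3 (-1.03, adjusted p = 0.00144, limma). Ccl9, which changed by 2.59 with anti-CD3 and 2.25 with both, was not called at -0.60. It was called below additive with the replicate number as a block (-0.60, adjusted p = 0.0416, limma) and without PBS replicate 2 (-0.78, adjusted p = 0.0378, limma).

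**Figure D3:**
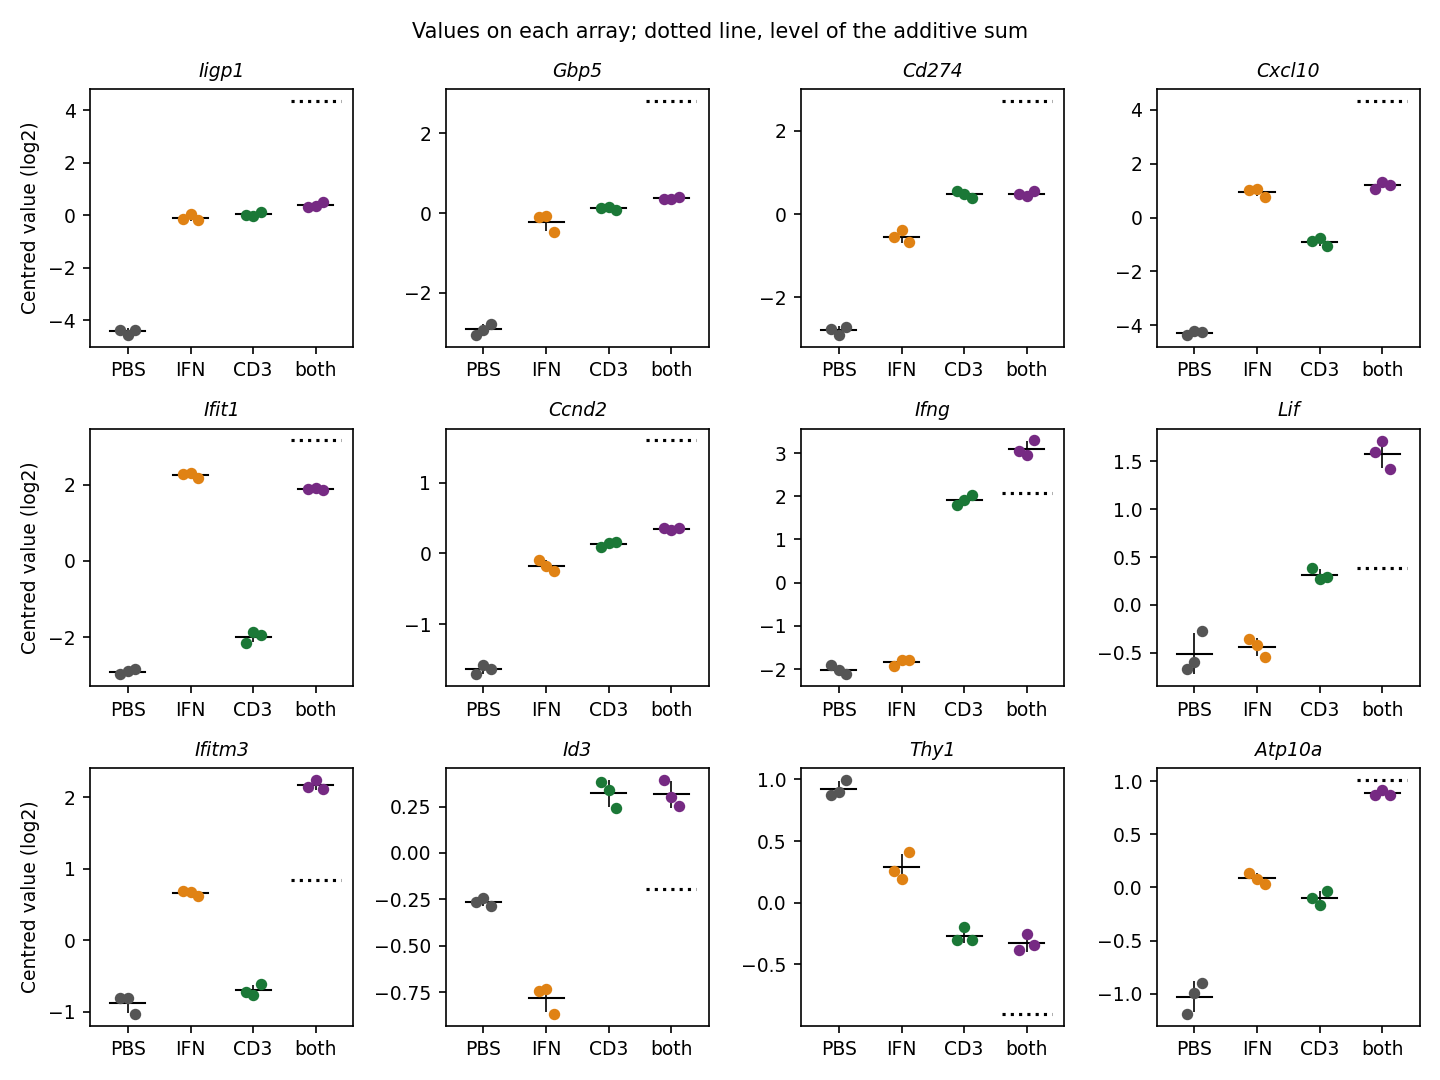
Centred log2 values of 12 genes on each of the 12 arrays (vertical axis, 0 is the gene's median), for mock treatment (PBS), each agent alone (IFN, CD3) and both, with the group mean as a horizontal bar, 1 SD either way as a vertical bar and the level of the additive sum as a dotted line. The points with both agents lie below the dotted line for Iigp1, Gbp5, Cd274, Cxcl10, Ifit1 and Ccnd2, above it for Ifng, Lif, Ifitm3, Id3 and Thy1, and near it for Atp10a.

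Antiviral effectors, the classical interferon-stimulated genes, are described by whether anti-CD3 alone also raised them. The interaction itself subtracts the anti-CD3 change. Where the level with both agents equals that with IFN-4a alone, it is minus the anti-CD3 change, so this split is no test. Of 33 measured, IFN-4a raised 31 and anti-CD3 17, and 16 were below additive, 2 above, 10 near and 5 undetermined, with a median interaction of -0.57. All 17 genes raised by anti-CD3 were also raised by IFN-4a, and 15 of those 17 were below additive. Oasl2 (Entrez 23962), an OAS-like antiviral protein, read -3.75, -3.62 and -3.48 with PBS, -1.42, -1.41 and -1.39 with anti-CD3, 1.59, 1.61 and 1.53 with IFN-4a, and 1.51, 1.39 and 1.53 with both. The IFN-4a arrays with and without anti-CD3 met at 1.53, and their difference of -0.10 was not called. The combined change was 5.09 against an additive sum of 7.40, and the interaction was -2.31 ± 0.10 (SE, limma, adjusted p = 1.97e-08).

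Ifit1 (Entrez 15957), which binds viral RNA, read -2.98, -2.89 and -2.84 with PBS, -2.16, -1.87 and -1.93 with anti-CD3, 2.29, 2.30 and 2.18 with IFN-4a, and 1.88, 1.92 and 1.87 with both. Here the arrays with both agents lay below those with IFN-4a alone without overlap, a difference of -0.36 (adjusted p = 0.00147, limma). The interaction was -1.27 ± 0.10 (SE, limma, adjusted p = 1.02e-05). With the centred values quantile normalized it was -0.31 (adjusted p = 0.434), so that setting ended the call. Rtp4, Parp9, Xaf1, Oas2 and the feedback protease Usp18 were also below additive, with interactions of -2.06, -1.54, -1.09, -0.75 and -1.29. Usp18 lost its call under quantile normalization too (-0.36, adjusted p = 0.233).

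Of the 16 genes of the list that anti-CD3 did not raise, 9 were near additive, 4 undetermined, 1 below and 2 above. Mx1, a dynamin-like antiviral GTPase, changed by 4.22 with IFN-4a and by 4.01 with both, with an interaction of -0.07 and a 95% interval of -0.35 to 0.21. Mx2, Rsad2, Herc6 and Daxx were likewise near additive, with interactions of -0.02, -0.10, -0.14 and 0.01. These 4 genes are named after their values were seen. Isg15, a ubiquitin-like modifier, was undetermined at -0.23 with an interval of -0.60 to 0.14. Of 15 sensors of viral nucleic acid, 3 were below additive (Zbp1 at -1.82, Ifih1 at -1.28 and Dhx58 at -0.58). Under quantile normalization Ifih1 was at -0.38 (adjusted p = 0.202) and Dhx58 turned to 0.14 (adjusted p = 0.638).

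The genes that carry the interferon signal itself were below additive where both agents raised them. In the list of interferon receptors, JAK-STAT and IRF factors, 17 were measured, 5 were raised by both and those 5 (Stat2, Stat3, Irf1, Irf7 and Irf9) were below additive, with 11 others near additive. Irf9 (Entrez 16391), a DNA-binding factor of the interferon response, read -1.11, -1.29 and -1.05 with PBS, -0.29, -0.26 and -0.41 with anti-CD3, 0.63, 0.67 and 0.52 with IFN-4a, and 0.26, 0.33 and 0.43 with both. Its arrays with both agents lay between those of the single treatments without overlap. The combined change was 1.49 against 1.76 with IFN-4a alone, and the interaction was -1.10 ± 0.11 (SE, limma, adjusted p = 7.55e-05). Irf7 had an interaction of -1.11 (-0.27, adjusted p = 0.169, under quantile normalization), and Stat2 one of -0.67 (-0.24, adjusted p = 0.334). Stat3 had one of -0.44. Irf1, a factor induced by interferon gamma, was raised more by anti-CD3 (1.14) than by IFN-4a (0.70) and stood at 1.08 with both, with an interaction of -0.77. The receptor genes Ifnar1 and Ifnar2 were near additive (0.02 and 0.01), with anti-CD3 changes of -0.64 and -0.28.

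MHC class I presentation had 7 of 19 measured genes below additive, none above (also 0 at an unadjusted p under 0.05, limma) and 9 near, with a median interaction of -0.35. H2-T24 (Entrez 15042), a class Ib heavy chain, read -3.05, -3.08 and -2.77 with PBS, -0.95, -0.91 and -0.78 with anti-CD3, 1.04, 1.09 and 1.01 with IFN-4a, and 0.78, 0.84 and 1.06 with both. Its arrays with both agents overlapped those with IFN-4a alone, and the interaction was -2.24 ± 0.13 (SE, limma, adjusted p = 2.71e-07). Nlrc5, the transactivator of class I genes, changed by 1.08, 1.54 and 1.60 with anti-CD3, IFN-4a and both, an interaction of -1.01. H2-T23, the mouse Qa-1 chain, had an interaction of -0.77, which under quantile normalization was -0.59 (adjusted p = 0.0716). B2m and H2-K1, the light chain and a classical heavy chain, were near additive (-0.05 and -0.01) with single changes of at most 0.22. These 2 genes were named after their values were seen.

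In 42 of the 123 genes anti-CD3 gave the larger single change. Cd274, Ccnd2, Jun, Bcl6, Cd69 and Il2ra were among them, and in these 6 the IFN-4a change was called in resting but not in stimulated cells. Cd274 (Entrez 60533), the PD-1 ligand, read -2.76, -2.91 and -2.72 with PBS, -0.56, -0.39 and -0.68 with IFN-4a, 0.55, 0.48 and 0.39 with anti-CD3, and 0.48, 0.43 and 0.56 with both. The anti-CD3 arrays with and without IFN-4a overlapped. The single changes were 3.27 and 2.25, the combined change was 3.29, and the interaction was -2.24 ± 0.11 (SE, limma, adjusted p = 8.06e-08). Of the 16 coinhibitory receptors and ligands it was the 1 called.

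Ccnd2 (Entrez 12444), cyclin D2 of the early cell cycle, read -1.71, -1.57 and -1.63 with PBS, -0.09, -0.17 and -0.24 with IFN-4a, 0.09, 0.15 and 0.17 with anti-CD3, and 0.37, 0.33 and 0.36 with both. The 4 groups stood in that order without overlap, yet the combined change of 1.99 was far under the sum of 3.24, with an interaction of -1.25 ± 0.08 (SE, limma, adjusted p = 1.04e-06). Jun, a subunit of AP-1, rose by 1.37 with anti-CD3, 1.0 with IFN-4a and 1.33 with both, an interaction of -1.04. Bcl6, a repressor linked to memory, had an interaction of -0.92. Cd69, an early activation marker, changed by 2.02, 1.16 and 2.32 with anti-CD3, IFN-4a and both, an interaction of -0.85 that was -0.44 (adjusted p = 0.0972) under quantile normalization. Il2ra (Entrez 16184), the high-affinity interleukin 2 receptor chain, read -2.44, -2.58 and -2.61 with PBS, -1.32, -1.40 and -1.99 with IFN-4a, 1.36, 1.37 and 1.41 with anti-CD3, and 1.47, 1.32 and 1.36 with both. Its interaction of -0.97 (limma, adjusted p = 0.0226) lost its call under quantile normalization (-0.30, adjusted p = 0.663) and in 9 of 12 fits that left out 1 array, where it was -0.98 to -0.85. The calls were lost without PBS replicate 2 or 3, PBS with IFN-4a replicate 1 or 2, anti-CD3 replicate 1, 2 or 3, or replicate 2 or 3 of both agents.

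In a smaller group the combined level fell under the IFN-4a level. Bcl3, an atypical NF-kappaB inhibitor, read -0.28, -0.18 and -0.42 with PBS, -0.03, 0.06 and 0.03 with anti-CD3, 0.42, 0.33 and 0.39 with IFN-4a, and -0.11, 0.09 and -0.11 with both. The arrays with both agents overlapped those with anti-CD3 alone and lay under those with IFN-4a alone, a difference of -0.42 (limma, adjusted p = 0.000401), and the interaction was -0.74. Icam1, an adhesion molecule of the immune synapse, changed by 0.24 with anti-CD3, 0.90 with IFN-4a and 0.45 with both, an interaction of -0.69. Kif1b, a kinesin, was the 1 gene lowered by anti-CD3, raised by IFN-4a and below additive, at -0.50. Its call was lost in 8 of 12 fits that left out 1 array. Of the 14 genes of NF-kappaB subunits and inhibitors, Bcl3 and Rel (-0.53) were below additive and the other 12 near additive. Rel lost its call under quantile normalization (-0.34, adjusted p = 0.103). Il12rb2, a subunit of the interleukin 12 receptor, was undetermined at -0.91 (limma, adjusted p = 0.0768), with arrays of -1.40, -0.95 and -1.60 with PBS. It was called with array weights (-1.01, adjusted p = 0.0275) and without PBS replicate 2 (-1.09, adjusted p = 0.0111).

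Among the 62 genes called above additive, 3 cytokines of activated T cells were in the 10 named genes with the highest interaction. Of 17 measured cytokines, 11 were raised by anti-CD3 and 1 by IFN-4a, 3 were above additive (Ifng, Lif and Il3), none was below (1 at an unadjusted p under 0.05, limma) and 10 were near, with a median interaction of 0.06. Ifng (Entrez 15978), interferon gamma, read -1.89, -2.03 and -2.12 with PBS, -1.94, -1.80 and -1.80 with IFN-4a, 1.80, 1.92 and 2.04 with anti-CD3, and 3.05, 2.95 and 3.30 with both. The resting groups overlapped, and all arrays with both agents lay above all with anti-CD3 alone. IFN-4a changed Ifng by 0.17 in resting cells and by 1.18 in stimulated cells, so the combined change was 5.11 against a sum of 4.10, with an interaction of 1.01 ± 0.13 (SE, limma, adjusted p = 0.00122).

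Lif (Entrez 16878), a cytokine of the interleukin 6 family, read -0.67, -0.59 and -0.27 with PBS, -0.36, -0.42 and -0.55 with IFN-4a, 0.38, 0.27 and 0.30 with anti-CD3, and 1.60, 1.71 and 1.42 with both. Its interaction was 1.19 ± 0.14 (SE, limma, adjusted p = 0.000551). Il3 (Entrez 16187), a growth factor for myeloid cells, read -0.78, -0.73 and -0.79 with PBS, -0.55, -0.65 and -0.68 with IFN-4a, 0.55, 0.61 and 0.78 with anti-CD3, and 1.53, 1.64 and 1.86 with both, an interaction of 0.89 ± 0.12 (SE, limma, adjusted p = 0.00138). In both genes the arrays with both agents were the 3 highest and the resting arrays the 6 lowest. The same pattern was seen for Lipg, endothelial lipase, with an interaction of 1.04. Tnf, Il2 and Csf2, other cytokines that T cell receptor engagement induces, had interactions of -0.08, 0.34 and 0.19, none of them called, with Il2 undetermined. These 3 were named after their values were seen.

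Cytotoxic effectors had 1 of 16 above additive and 1 below. Gzmc, granzyme C, read -0.14, -0.08 and -0.11 with PBS, -0.20, -0.26 and -0.15 with IFN-4a, 0.08, 0.09 and 0.13 with anti-CD3, and 1.27, 0.59 and 0.92 with both. Only the arrays with both agents exceeded 0.5, and they spread the most. The interaction was 0.92 ± 0.17 (SE, limma, adjusted p = 0.0173), and it lost its call without PBS replicate 2 (0.90, adjusted p = 0.0526) or PBS with IFN-4a replicate 2 (0.89, adjusted p = 0.057). Gzmb, granzyme B, read -1.45, -1.96 and -1.77 with PBS, -0.31, -0.29 and -0.60 with IFN-4a, 1.14, 0.52 and 0.29 with anti-CD3, and 3.31, 2.48 and 2.40 with both. Each treatment raised it without overlap and the combined level was the highest, 21.96-fold over PBS, but the interaction of 0.75 ± 0.34 (SE, limma, adjusted p = 0.438) was not called. Tnfsf10, the death ligand TRAIL, was the 1 below additive at -0.44, at an adjusted p of 0.0498, and lost that call in 10 of 12 fits that left out 1 array, where it was between -0.47 and -0.40.

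Ifitm3 (Entrez 66141), a membrane protein that blocks viral fusion, had the highest interaction of all genes tested. It read -0.81, -0.81 and -1.03 with PBS, -0.73, -0.76 and -0.62 with anti-CD3, 0.69, 0.67 and 0.62 with IFN-4a, and 2.14, 2.25 and 2.12 with both. Anti-CD3 alone left it near the PBS level (a change of 0.18, not called), IFN-4a raised it by 1.54 and both raised it by 3.05. The interaction of 1.33 ± 0.10 (SE, limma, adjusted p = 5.03e-06) had the opposite sign to that of the 16 antiviral effectors below additive. Oas1g (0.70) and Mpeg1 (0.80), a 2'-5' oligoadenylate synthetase and a pore-forming protein of phagocytes, had the same combination of single effects, and both lost their calls under quantile normalization (adjusted p = 0.159 and 0.14) and in 7 and 9 of the 12 fits that left out 1 array.

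Hspa1b, an inducible HSP70, was called with neither agent alone (changes of -0.10 and -0.03) and rose by 1.12 with both. It read 0.04, -0.10 and 0.02 with PBS, -0.25, -0.02 and 0.13 with IFN-4a, -0.19, -0.04 and -0.10 with anti-CD3, and 1.18, 1.45 and 0.69 with both. The 3 arrays with both agents stood apart from the other 9 and from each other, and the interaction was 1.25 ± 0.21 (SE, limma, adjusted p = 0.00887). Hspa1b shares nearly all its sequence with Hspa1a, so its probes may read both. Furin, a proprotein convertase, was the 1 gene raised by both and above additive, at 0.38 with an adjusted p of 0.0462. The call was lost under quantile normalization (0.34, adjusted p = 0.125), with the replicate number as a block (0.38, adjusted p = 0.056) and in 11 of 12 fits that left out 1 array.

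A fall with IFN-4a in resting cells that was smaller, or not called, in stimulated cells gave most other above-additive calls. Of the 18 genes raised by anti-CD3, lowered by IFN-4a and above additive, 16 were called higher with both agents than with IFN-4a alone only. Their median changes were 0.76 with anti-CD3, -0.55 with IFN-4a and 0.70 with both, against a median sum of 0.16. Qtrt2, a subunit of a tRNA-modifying enzyme, read -0.89, -0.80 and -0.82 with PBS, -1.55, -1.32 and -1.46 with IFN-4a, 0.87, 0.87 and 0.80 with anti-CD3, and 0.85, 0.92 and 0.87 with both. The anti-CD3 arrays with and without IFN-4a overlapped while the resting arrays did not, and the interaction was 0.64 ± 0.09 (SE, limma, adjusted p = 0.00176). Id3, a repressor tied to memory precursors, changed by 0.59, -0.52 and 0.58 with anti-CD3, IFN-4a and both, an interaction of 0.51 that was 0.41 (adjusted p = 0.0565) under quantile normalization. Tfrc, the transferrin receptor, had an interaction of 0.48 and was the 1 such gene whose combined change, 2.59, was called above each single change. Ubash3b, a phosphatase that restrains T cell receptor signalling, was the 1 such gene whose combined level (1.22) was called lower than with anti-CD3 alone (1.65), with an interaction of 0.62 that lost its call in 4 fits that left out 1 array. Ier3, an immediate-early gene, changed by 0.03 with anti-CD3, -0.52 with IFN-4a and 0.30 with both, an interaction of 0.79 ± 0.09 (SE, limma, adjusted p = 0.000216).

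The 21 measured genes of ribosome biogenesis were all raised by anti-CD3 and 11 were lowered by IFN-4a. None had a called interaction and 19 were near additive, against 0.911% and 86.6% of all genes. Their median interaction was 0.19 against 0.01 over all genes. At an unadjusted p under 0.05 in limma, 9 of the 21 were above additive and 0 below, against 1461 and 972 of all 22180. In chemokine and homing receptors, 8 of 12 were lowered by anti-CD3 and 5 by IFN-4a, none had a called interaction (5 above and 1 below at an unadjusted p under 0.05, limma), and the median was 0.23.

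The other groups held 0 to 2 calls in a direction each, beside 0.631% of all genes called below additive and 0.28% above. Of 21 immediate-early factors, 16 were raised by anti-CD3, and Jun was below and Ier3 above additive. Of 16 early activation and cytokine receptors, Cd69 and Il2ra were below and Tfrc above. Of 14 costimulatory genes of the TNF family, Tnfsf8 (-0.87) and Tnfrsf1b (-0.50) were below additive. Tnfsf8 was at -0.38 (adjusted p = 0.159, limma) under quantile normalization. Of 13 memory and effector factors Bcl6 was below and Id3 above, of 19 genes of T cell receptor signalling Ubash3b was above, and of 17 apoptosis genes Casp4, an inflammatory caspase, was below at -0.90 (-0.45, adjusted p = 0.124, under quantile normalization). Ccnd2 was the 1 call of 21 cell cycle genes, and Usp18 that of 9 cytokine feedback inhibitors. Of 14 ligands of NK cell receptors, H2-T23 and Icam1 were below. Among 12 dual-specificity phosphatases and their relatives, 17 glycolysis, 17 cholesterol and fatty acid and 16 lysosomal genes none had a called interaction. In these groups 9, 16, 17 and 16 genes were near additive. Over all genes 0.911% were called and 86.6% were near additive, so a count of 0 in such small groups is near that share. At an unadjusted p under 0.05 in limma these groups held 2, 3, 5 and 4 genes, against 972 below and 1461 above among all 22180.

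Among genes lowered by both, the 22 above-additive genes fell by less than the sum, with 9 called different from neither single treatment, 8 called lower with both than with IFN-4a alone and 1 lower than with anti-CD3 alone. Their median changes were -0.55 with anti-CD3, -0.46 with IFN-4a and -0.48 with both, against a median sum of -1.08, and in 20 of 22 the combined change was within 0.5 of the larger single change. Thy1 (Entrez 21838), a surface glycoprotein of T cells, read 0.87, 0.90 and 1.0 with PBS, 0.25, 0.20 and 0.41 with IFN-4a, -0.30, -0.20 and -0.30 with anti-CD3, and -0.39, -0.25 and -0.34 with both. The anti-CD3 arrays with and without IFN-4a overlapped, the level with both was called lower than that with IFN-4a alone (a difference of -0.61, adjusted p = 6.96e-06, limma), and the interaction was 0.57 ± 0.10 (SE, limma, adjusted p = 0.00849). Twist2, a repressor of cytokine genes, had an interaction of 0.62 (adjusted p = 0.0217, limma) that lost its call under quantile normalization (0.60, adjusted p = 0.0582) and in 8 fits that left out 1 array.

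**Figure D4:**
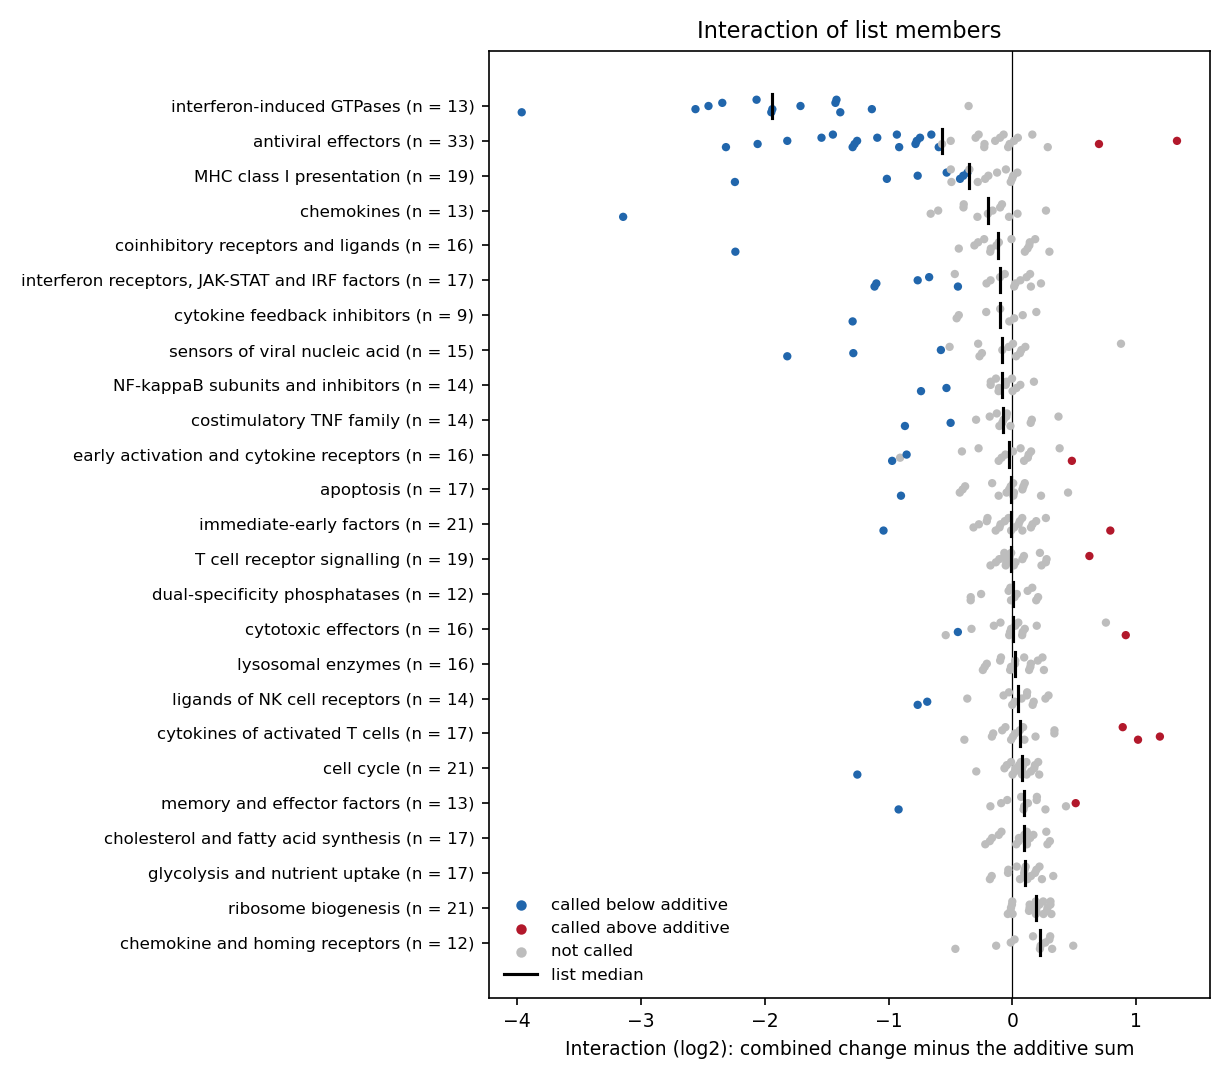
Interaction (log2, horizontal axis) of the measured members of each gene group, 1 point per gene, with the group's median as a vertical bar and colours for genes below additive, above additive and not called. The interferon-induced GTPases lie furthest below 0 with a median of -1.94, and the chemokine and homing receptors have the highest median, 0.23.

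Near-additive genes with large single effects were found in every combination of called single effects. Atp10a (Entrez 11982), a phospholipid flippase, read -1.19, -0.99 and -0.90 with PBS, -0.10, -0.17 and -0.03 with anti-CD3, 0.14, 0.08 and 0.03 with IFN-4a, and 0.87, 0.92 and 0.87 with both. The arrays with both agents lay above all others, and the combined change of 1.91 met the sum of 2.04 with an interaction of -0.13 and a 95% interval of -0.35 to 0.09. Slc25a22, a mitochondrial glutamate carrier, was alike, at -0.20 with an interval of -0.41 to 0.01. The near-additive class also allows an interval that leaves out 0. Among the named genes raised by both, Shfl (-0.48 to -0.08), Cysltr2 (-0.49 to -0.04) and Tcof1 (-0.46 to -0.13) had such intervals. Those of Atp10a, Slc25a22 and Gmppb (-0.47 to 0.04) held 0. For falling genes, Itgb7, the beta 7 integrin of gut homing, read 0.62, 0.71 and 0.79 with PBS, 0.07, 0.02 and 0.16 with IFN-4a, -0.13, -0.09 and -0.02 with anti-CD3, and -0.87, -0.54 and -0.64 with both. Its fall with both, -1.39, matched the sum of -1.41 with an interval of the interaction of -0.23 to 0.26. Sgsh, a lysosomal sulfatase, fell by 1.57 against a sum of -1.71. Fam111a, a protease that restricts viruses, changed by -0.84 with anti-CD3, 1.0 with IFN-4a and 0.13 with both, so the opposed changes cancelled, and Dpp4 did likewise (-0.84, 0.65 and -0.02). Both had intervals of the interaction within 0.5 of 0. Nr4a1, a reporter of T cell receptor signal strength, rose by 3.44 with anti-CD3 and by 3.45 with both, an interaction of 0.08.

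On the linear scale an additive combination adds the increases over PBS instead of multiplying the folds, and the sign of the departure was compared there with no test. Of the 123 genes raised by both and below additive, 117 lay below on that scale as well, by margins that could be slight. Igtp stood at 5.99-fold over PBS with both agents against 10.0-fold expected and Cxcl10 at 44.8-fold against 47.2-fold, while Casp4 at 5.23-fold against 5.25-fold hardly differed. The 6 exceptions were Clic4, Gbp11, Gm4951, Lilrb4a, Slamf7 and Tnfsf8, named after their values were seen. Ifng stood at 34.6-fold against 15.4-fold. For genes lowered by both the scale itself sets the sign, since 632 of the 639 near-additive ones were above on it too, so no count is read from them. At the threshold, Tnfsf10 (-0.44, adjusted p = 0.0498, limma) and Ddx60 (-0.83, 0.05) lay just inside the below-additive calls, and Ecm1 (-0.71, 0.0506) and Mcu (-0.41, 0.0526) just outside. On the other side Med12l (0.49, 0.0498) and Ceacam5 (0.55, 0.05) lay inside, and Pwp2 (0.42, 0.0512) and Pprc1 (0.40, 0.0512) outside.

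Promoter letters and gene order, which the calls did not use, are described here with no test. Of the 123 genes raised by both and below additive, 88 had a promoter in the RefSeq table, and 29 of those (33.0%) held an ISRE core, against 8.51% of 94 near-additive genes raised by both, 15.2% of 343 genes raised by IFN-4a and not called with anti-CD3, and 8.1% of all 16918 genes tested with a promoter. A GAS match was held by 18 of the 88 (20.5%), against 6.38% of the near-additive genes and 8.02% of all. A kappaB match was held by 9 (10.2%) against 3.92% of all, and an AP-1 match by 7 (7.95%) against 7.37% of all. Of 77 undetermined genes raised by both, 16.9% held an ISRE core, 9.09% a GAS, 11.7% a kappaB and 14.3% an AP-1 match. The median IFN-4a change was 1.52 in the below-additive genes raised by both and 0.32 in the near-additive ones. Whether the shares follow the size of that change was not tested. Of 47 above-additive genes with a promoter, 3 (6.38%) held an ISRE core and 6 (12.8%) an AP-1 match. Of the 129 below-additive genes with a placed neighbour order, 29 lay next to another below-additive gene. They included the Gbp clusters and pairs such as Igtp with Irgm2, Parp9 with Parp14 and Oas2 with Oas3, and also neighbours of unlike names. Sequence was not compared between neighbours, and the share over all genes was not computed. Of 56 above-additive genes, 2 lay next to another above-additive gene, Crtam and Ubash3b.

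**Figure D5:**
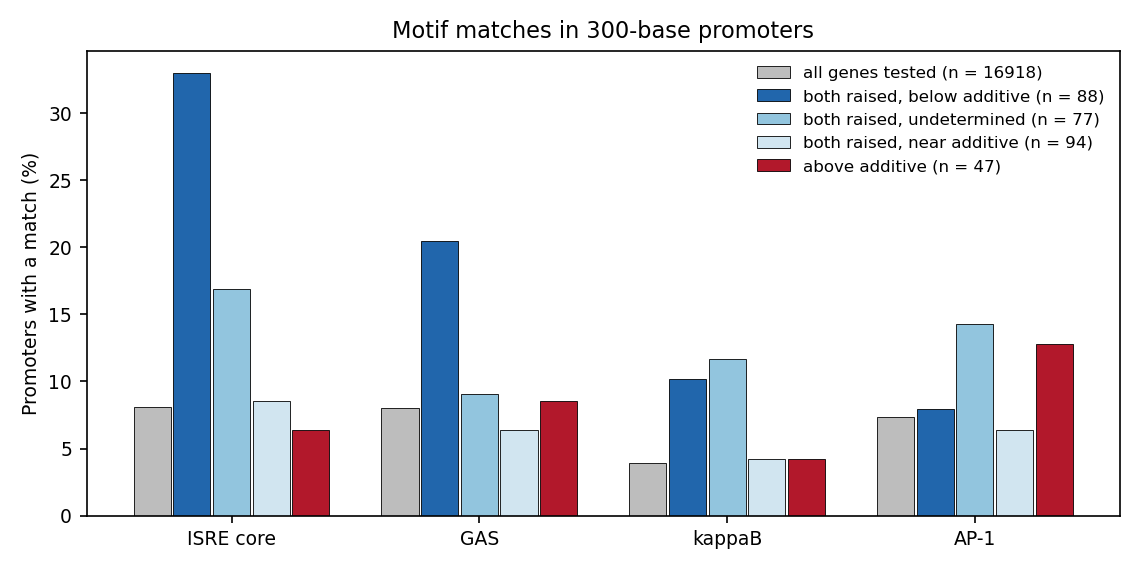
Share of RefSeq promoters (percent, vertical axis) with at least 1 match to each of 4 motifs, for all genes tested, for the genes raised by both agents in 3 classes, and for all above-additive genes, with n the number of promoters. The ISRE core bar of the genes raised by both and below additive, 33.0%, stands above that of the near-additive genes, 8.51%.

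Markers of other cell types are set here beside all genes, of which 0.911% had a called interaction. Of the B cell, CD4 T cell, NK cell, monocyte with macrophage and dendritic cell, granulocyte, and erythroid with platelet lists, none of the measured genes had a called interaction, and their medians lay between -0.05 and 0.04. At an unadjusted p under 0.05 in limma, 4 of these 51 genes departed from additivity, against 972 below and 1461 above among all 22180. A count of 0 called in 51 genes is near the share over all genes. Of 8 plasmacytoid dendritic cell markers, 1 was below additive, Bst2 at -1.45, which is also an interferon-stimulated gene of most cells. At 8 or above before centring stood 0 of 9 B cell, 0 of 8 NK cell, 0 of 13 monocyte, macrophage and dendritic cell, 0 of 10 granulocyte, 1 of 6 CD4 T cell, 2 of 8 plasmacytoid dendritic cell and 0 of 5 erythroid and platelet markers.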

How the data were processed

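RNA of CD8+ T cells was measured on 12 single-channel arrays in 4 groups of 3, grouped by the labels' titles. The deposited log2 values had been centred by the authors on each probe set's median over the 12 arrays, as the file's values show; the log base is taken as 2, with software and between-array normalization not given in the sources used here. A natural log was not excluded, in which case every printed fold would be larger. Arrays give no count depth, and their number limits the precision.

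The platform table gave 1 symbol to 23521 probe sets, several to 1814 and none to 8458. For the 1082 genes with several, the one with the highest mean was used. A mean per group was fitted over all 12 arrays with limma 3.58.1 in R 4.3.3 (8 residual and 5.09 prior degrees of freedom), and two-sided moderated tests of 6 contrasts were each adjusted over 22180 genes by Benjamini-Hochberg. Genes called at an adjusted p under 0.05 were below or above additive. Others were near additive where the 95% interval lay within 0.5 of 0. The fit was tested on simulated data. The members and gene lists were chosen with earlier results of these data known. Named genes were the 12 with the largest called interaction in each direction, up to 5 per combination of single effects, the near-additive genes with the largest single effects, per list the 4 measured members whose interaction was largest in size, and 9 check genes (Cd3e, Cd8a, Cd69, Il2ra, Nr4a1, Ifit1, Irf7, Isg15 and Mx1), passing over predicted genes and small RNAs. Others named beside a count (Stat3, Gbp3, Gbp4, Gbp6, Oas2, Oas3, Xaf1, Parp14, Ifnar1, Ifnar2, Crtam and the 4 genes outside the threshold) were chosen after their values were seen.

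Alternatives were quantile normalization of the centred values, array weights, other rules for genes with several probe sets, the replicate number as a block, a threshold of 0.01, a filter on range, other bounds, linear levels and leaving out each array in turn.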

Additional observations from a re-analysis of the deposited data

Results flagged for a closer look

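The IFN-4a change differed between stimulated and resting cells, by the test of that difference itself (limma's interaction contrast, Benjamini-Hochberg adjusted p under 0.05), in 202 genes: it was lower in stimulated cells in 140 and higher in 62. The 10 lowest interactions were those of Iigp1 (-3.96), Cxcl10 (-3.14), Gbp10 (-2.56), Gbp5 (-2.45), Igtp (-2.34), Oasl2 (-2.31), H2-T24 (-2.24), Cd274 (-2.24), Irgm1 (-2.07) and Rtp4 (-2.06), in log2 units. In each of these genes both agents alone raised the level. The 10 highest among named genes were those of Ifitm3 (1.33), Hspa1b (1.25), Lif (1.19), Lipg (1.04), Ifng (1.01), Gzmc (0.92), Il3 (0.89), Mpeg1 (0.80), Ier3 (0.79) and Oas1g (0.70). In 4 of these, Lif, Lipg, Ifng and Il3, anti-CD3 alone raised the level and IFN-4a alone was not called. In 3, Ifitm3, Mpeg1 and Oas1g, it was the reverse. Hspa1b and Gzmc were called with neither agent alone. Ier3 was lowered by IFN-4a alone.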

How the results depend on the processing

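The counts without any alternative were 140 genes below and 62 above additive, with 123 below, 1 above and 125 near additive among genes raised by both, and 20 not additive among genes with opposed single effects. Quantile normalization gave 70 below, 59 of them raised by both, and 0 above raised by both. Array weights gave 172 below, 117 above and 35 with opposed effects. A threshold of 0.01 gave 18 above, 0 above raised by both, 51 near additive and 2 with opposed effects. A bound of 0.3 left 25 near additive and a bound of 1 gave 213. Restricting the fit to the 5941 genes with the mark of 8 or above before centring, chosen after seeing the data, gave 149 below, 170 above and 77 with opposed effects. That subset lacks genes with several arrays far above their median, so it was not set by brightness alone. Leaving out 1 array at a time gave 107 to 140 below, 102 to 122 below raised by both, 30 to 58 above, 0 to 1 above raised by both, 76 to 126 near additive and 6 to 18 with opposed effects. The count above moved by over 1.5 times without PBS replicate 2 (34) or 3 (36), PBS with IFN-4a replicate 1 (37) or 2 (30), anti-CD3 replicate 1 (32), 2 (36) or 3 (40), or both agents' replicate 2 (31). The interaction of Dhx58 turned from -0.58 to 0.14 under quantile normalization. The cause of these changes was not tested.

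Replicate numbers were not taken to pair the arrays, since not every same-numbered pair had a correlation of deviations over 0.1: 6 of 18 did (-0.075 to 0.265), against 5 of 36 pairs of different numbers (-0.245 to 0.181). With the replicate number as a block there were 142 below, of which 129 were shared, 65 above, of which 47 were shared, and 0 above raised by both. Of 12 arrays, 9 were closest to an array of their own number, a hint of pairing from the data that the labels do not give. Of 79 named genes with a called interaction, 38 kept the call in every setting but the stricter threshold, 40 lost it in at least 1 and 1 reversed. Centred values show neither the signal over background nor the distance from its upper limit. What dim or very bright probes limit could therefore not be judged.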
